A study of Mus musculus with 6 samples.

Results

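The genes described here are those of glutathione, thioredoxin and the NRF2 antioxidant response, followed in C2C12 cells, a mouse myoblast line. They were chosen by symbol in the deposited count table: the glutathione S-transferase, glutathione peroxidase, peroxiredoxin, thioredoxin, thioredoxin reductase and glutaredoxin families, with Gclc, Gclm, Gsr, Gss, Srxn1, Nqo1, Hmox1, Nfe2l2, Keap1, Sod1, Sod2, Sod3 and Cat. The cystine transporter Slc7a11 was left out of the set by the same rule. This gave 59 genes of the 22272 symbols in the table. The rule uses symbols and no threshold on measured values, though the set was proposed with earlier results of these data known. RNA-seq libraries came from 3 samples of C2C12 cells that overexpressed ChREBP-beta and from 3 samples with GFP, whose genotype is labelled WT. ChREBP-beta is the short, active isoform of the glucose-responsive transcription factor encoded by Mlxipl. All 6 samples were undifferentiated and taken at day 0, all come from 1 cell line, and the sources used here do not give how the cells were made to carry either protein. The labels do not state that replicates were grown separately, and the tests therefore speak only to variation among these libraries, which may be technical in origin.

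Deposited counts ran from 17600238 to 19163834 per library, with both groups across that range. Mlxipl was read at 219 CPM with ChREBP-beta and at 0.599 CPM with GFP (means of 3 libraries, where CPM is the read count scaled to a common library size with TMM factors). The summed level of 8 myoblast markers was 121 to 129 CPM in ChREBP-beta libraries and 374 to 412 CPM in GFP libraries, with Myog at 0 in all 3 ChREBP-beta libraries. GFP replicate 1 stood apart from the other libraries in transcripts foreign to myoblasts. Its 8 lung epithelial markers summed to 0.576 CPM, against 72.0 to 139.5 CPM in the other 5 libraries. Hepatocyte markers (14 genes) summed to 25.6 to 31.9 CPM with ChREBP-beta and to 1.21, 2.71 and 41.6 CPM in GFP replicates 1 to 3, so neither signal followed the groups. Blood markers (12 genes) summed to 20.6 to 25.9 CPM with ChREBP-beta and 7.17 to 27.1 CPM with GFP. The sum of 6 fibroblast markers was 1228 to 1259 CPM with ChREBP-beta and 886 to 955 CPM with GFP, most of it from Col1a1 and Ly6a. The list went both ways: Col1a1, Ly6a and Pdgfra were higher in every ChREBP-beta library, while Dcn had 1.68 to 2.66 CPM with ChREBP-beta and 7.41 to 8.84 CPM with GFP, and Lum and Thy1 stayed under 1.5 CPM. No marker of these lists was at 0 in all 6 libraries, and the part of these marker differences in the results was not tested.

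Glutathione is a tripeptide of glutamate, cysteine and glycine that cells use to reduce peroxides and to tag reactive compounds for export. Thioredoxin is a small protein that carries electrons from NADPH to peroxiredoxins, and glutaredoxins do similar work with glutathione. NRF2, encoded by Nfe2l2, is held low by KEAP1, which delivers it for degradation, and when released it pairs with small MAF proteins and binds antioxidant response elements in the promoters of many of the genes here.

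Of the 59 genes, 48 had enough counts to be tested. With ChREBP-beta, 19 of them were higher and 15 lower, and 14 were not called (edgeR quasi-likelihood test, Benjamini-Hochberg adjusted over all 12166 genes tested, called at an adjusted p under 0.05). Called genes thus made up 70.8% of those tested, beside 58.7% of all genes tested. By direction, 39.6% were higher and 31.2% lower, beside 29.5% and 29.3% of all genes tested. The median log2 fold change was -0.01 in the set and 0.00 over all genes, while the median size of change without its sign was 0.30 and 0.23 on the log2 scale. At least 1.5-fold changes were found for 8 genes that rose and 8 that fell, which is 33.3% of those tested beside 19.8% of all genes (7.46% higher and 12.4% lower). The 6 libraries separated without overlap between groups at 77.1% of the tested genes of the set, beside 63.2% of all genes tested. From bulk RNA, fewer cells of a kind and less RNA per cell cannot be told apart. Levels of 10 tested genes are uncertain because their exons overlap another gene (among them Gclm, Gss, Gstcd, Gstm5, Gstt3, Gstz1, Keap1, Prdx2 and Prdx5). Reads were split between genes in at least 1 library at Gsta1, Gsta2, Gstp1, Gstp2, Gstt3, Gstz1, Glrx2, Prdx2, Prdx5 and Sod2.

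The 8 that rose at least 1.5-fold were Sod3, Gsto1, Gsto2, Gclc, Hmox1, Txnrd1, Gpx8 and Gclm. The 8 that fell as far were the S-transferases Gstm7, Gsta1, Gstt3, Gstt1, Gsta2, Gsta4 and Gstm2, with the secreted peroxidase Gpx3. Rises of this size thus included the limiting enzyme of glutathione synthesis, cytosolic thioredoxin reductase and heme oxygenase. S-transferases, 16 of the 48 genes tested, made up 7 of the 8 falls and 2 of the 8 rises (Gsto1 and Gsto2). Of these falls, Gsta2 passed the filter on counts through GFP, its higher group.

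**Figure D1:**
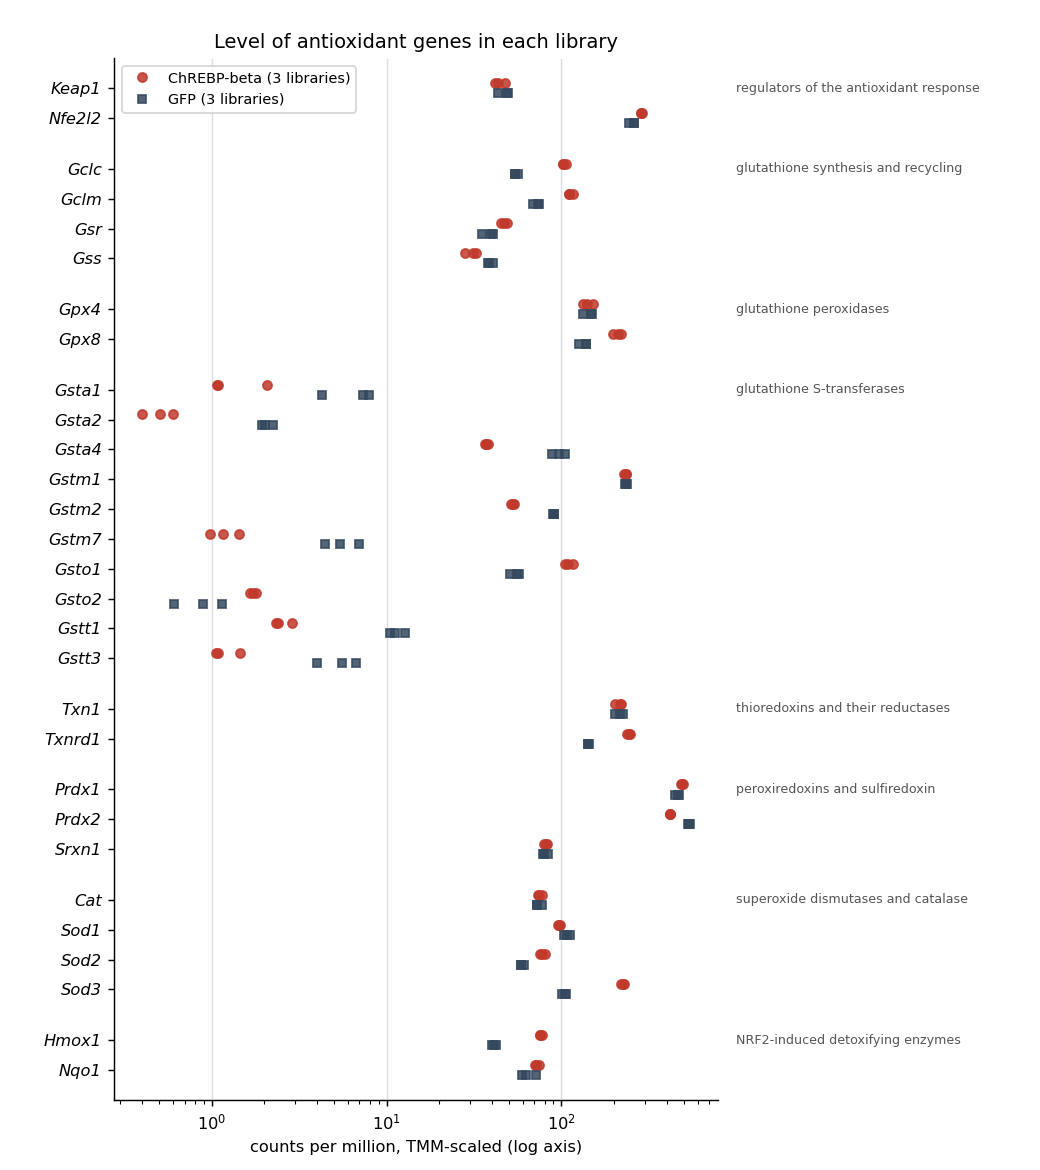
Level of 29 antioxidant genes in each of the 6 libraries, as TMM-scaled CPM on a log axis, with genes down the page by role. Red circles are the 3 ChREBP-beta libraries and dark squares the 3 GFP libraries; Gsta4 reads 36.7 to 38.1 CPM with ChREBP-beta and 88.0 to 105 CPM with GFP, while the libraries of both groups coincide at Gstm1, Txn1, Srxn1 and Cat.

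The regulators themselves differed little. Nfe2l2 (ENSMUSG00000015839.6, GRCm38 chr2:75675513-75704641, minus strand) was read at 283, 285 and 288 CPM with ChREBP-beta and at 259.6, 244 and 259.7 CPM with GFP, in the order of replicates kept below. All ChREBP-beta libraries were above all GFP libraries, by 1.12-fold (log2 fold change 0.17, SE 0.0308, adjusted p = 6.04e-05). Keap1, the repressor, was read at 47.5, 43.3 and 41.5 CPM with ChREBP-beta and at 43.4, 49.1 and 49.2 CPM with GFP. These ranges overlap and Keap1 was not called (log2 fold change -0.10, adjusted p = 0.186). Without GFP replicate 1 its log2 fold change was -0.16 with an adjusted p of 0.0408, the lowest over its alternatives, which reached 0.533.

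The promoters of the set were searched for the core letters of the antioxidant response element, TGACNNNGC and TGAGNNNGC, on both strands, in the window from 250 bases before to 50 bases after each RefSeq start (GRCm38.p6). Sequences were found for 52 of the 59 genes (all but Gclc, Gsr, Gsta4, Gstt2, Hmox1, Prdx6 and Sod3), and 18 of these (34.6%) held either form, beside 30.8% of all 27025 genes in the promoter table. Of the 18, 6 were higher, 4 lower, 5 not called and 3 not tested, so the letters occurred in genes of every outcome. Called genes were 70.8% of those tested in the whole set and 58.7% of all genes tested. Among the genes without a sequence, Gclc, Gsr, Hmox1, Prdx6 and Sod3 were higher, Gsta4 was lower and Gstt2 was not tested. No match overlapped another motif searched. The E-box letters CACGTG, the core of the sites that ChREBP and Mlx bind, lay in the windows of 3 genes (Glrx2, Gpx6 and Prdx4), which is 5.77% of the 52 beside 8.09% of all genes. The 4 windows below show cores beside genes that rose (Gclm and Txnrd1), a gene that was not called (Srxn1) and a gene that fell (Gstm7). Capitals mark each core, shown 5′ to 3′ on the gene's strand, where GC at the left end means that the core lies on the opposite strand.
Gclm, chr3:122245307-122245606, plus strand: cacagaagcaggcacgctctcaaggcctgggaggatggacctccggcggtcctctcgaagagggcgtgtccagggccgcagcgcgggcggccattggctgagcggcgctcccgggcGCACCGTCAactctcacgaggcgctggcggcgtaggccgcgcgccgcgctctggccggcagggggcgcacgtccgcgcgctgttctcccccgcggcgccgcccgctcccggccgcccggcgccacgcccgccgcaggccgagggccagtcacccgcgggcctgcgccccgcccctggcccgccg
Txnrd1 (1 of its 3 windows), chr10:82858956-82859255, plus strand: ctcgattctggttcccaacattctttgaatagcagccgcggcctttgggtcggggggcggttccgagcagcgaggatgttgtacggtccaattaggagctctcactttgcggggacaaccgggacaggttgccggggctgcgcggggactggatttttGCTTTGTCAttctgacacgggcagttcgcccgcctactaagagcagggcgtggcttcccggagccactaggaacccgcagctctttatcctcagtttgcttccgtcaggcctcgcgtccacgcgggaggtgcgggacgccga
Srxn1, chr2:152105274-152105573, plus strand: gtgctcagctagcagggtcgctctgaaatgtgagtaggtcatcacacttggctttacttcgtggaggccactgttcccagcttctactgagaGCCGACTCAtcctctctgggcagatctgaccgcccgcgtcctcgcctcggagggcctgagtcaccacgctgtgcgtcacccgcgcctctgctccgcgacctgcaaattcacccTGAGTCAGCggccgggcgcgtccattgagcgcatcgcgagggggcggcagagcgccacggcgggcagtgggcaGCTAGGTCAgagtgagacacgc
Gstm7, chr3:107931565-107931864, minus strand: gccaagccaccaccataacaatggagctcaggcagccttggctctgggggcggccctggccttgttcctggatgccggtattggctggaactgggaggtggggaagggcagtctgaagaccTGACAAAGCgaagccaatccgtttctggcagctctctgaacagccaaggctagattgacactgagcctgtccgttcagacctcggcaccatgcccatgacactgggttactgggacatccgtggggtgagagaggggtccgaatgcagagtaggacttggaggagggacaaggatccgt
The core starts 134 bases before the start site in Gclm, 92 bases before it in Txnrd1 and 129 bases before it in Gstm7. Srxn1 holds 3 cores, which begin 158 and 45 bases before and 28 bases after its start site. A match of letters is not a test of binding, and elements outside these windows were not searched.

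Transcripts for the first step of glutathione synthesis were higher with ChREBP-beta. Glutamate-cysteine ligase joins glutamate to cysteine and sets the pace of the pathway, and both of its subunits rose. Gclc, the catalytic subunit (ENSMUSG00000032350.9, GRCm38 chr9:77754535-77794485, plus strand), was read at 102, 106 and 102 CPM with ChREBP-beta and at 53.9, 54.3 and 56.7 CPM with GFP. The groups were far apart, 1.88-fold (log2 fold change 0.91, SE 0.0425, adjusted p = 2.96e-15). Gclm, the modifier subunit that raises the catalytic subunit's affinity for glutamate, was read at 116, 110.5 and 109.8 CPM with ChREBP-beta and at 73.5, 74.2 and 69.2 CPM with GFP. It was 1.55-fold higher (log2 fold change 0.63, SE 0.0411, adjusted p = 1.94e-12), and every ChREBP-beta library exceeded every GFP library.

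Gss, glutathione synthetase, which adds glycine in the second step, went the other way. Its levels were 28.0, 31.1 and 32.6 CPM with ChREBP-beta and 38.1, 40.4 and 38.7 CPM with GFP, 1.28-fold lower without overlap (log2 fold change -0.35, adjusted p = 4.93e-05). Exons of Gss overlap those of Acss2 on the opposite strand in GENCODE M21. Acss2 fell too (40.9 CPM with ChREBP-beta and 55.6 CPM with GFP, log2 fold change -0.44, adjusted p = 6.86e-07), and without the strand setting of the counting, reads of these genes cannot be told apart where they overlap. Gsr, the reductase that returns oxidised glutathione to its reduced form with NADPH, was read at 45.3, 49.1 and 47.2 CPM with ChREBP-beta and at 40.7, 39.7 and 35.0 CPM with GFP. It was 1.23-fold higher with no overlap between groups (adjusted p = 2.31e-04).

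Among the glutathione peroxidases, which reduce hydrogen peroxide and lipid peroxides, 1 was higher, 2 were lower and 1 was not called. With 4 genes tested, that is 25% higher and 50% lower, beside 29.5% and 29.3% of all genes tested. Gpx8, a cysteine-type peroxidase of the endoplasmic reticulum, was read at 196, 210.0 and 219 CPM with ChREBP-beta and at 137, 137 and 126 CPM with GFP. It was the member that rose, by 1.56-fold (log2 fold change 0.64, SE 0.0407, adjusted p = 1.19e-12). Gpx3, the secreted plasma form, was read at 10.3, 12.9 and 13.6 CPM with ChREBP-beta and at 20.2, 18.5 and 16.8 CPM with GFP, 1.51-fold lower (adjusted p = 3.39e-05). Gpx1, the main cytosolic form, was lower by a small step, at 149 ± 4.15 CPM with ChREBP-beta and 162 ± 5.83 CPM with GFP (SD, n = 3 libraries each; edgeR adjusted p = 0.00603). Without ChREBP-beta replicate 1, Gpx1 was no longer called (log2 fold change -0.09, adjusted p = 0.0565; range over its alternatives 2.84e-04 to 0.0565). Gpx4, which protects membranes from lipid peroxides and prevents ferroptosis, was read at 134, 141 and 152 CPM with ChREBP-beta and at 149, 147 and 133 CPM with GFP. The groups overlap fully and Gpx4 was not called (log2 fold change -0.01, adjusted p = 0.874). Gpx2, an intestinal form, had 2 counts over the ChREBP-beta libraries and 4 over the GFP libraries, and Gpx5, Gpx6 and Gpx7 were listed at 0 in all 6 libraries.

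The glutathione S-transferases, enzymes that attach glutathione to reactive compounds, held the largest falls of the set. Of 23 genes 16 were tested: 3 were higher, 8 lower and 5 not called. That is 18.8% higher and 50% lower, beside 29.5% and 29.3% of all genes tested. No test between classes was run, and each class holds few tested genes. The alpha class, active on lipid peroxidation products, had 3 genes tested and all 3 called lower, of which Gsta2 passed the filter on counts through its higher group, GFP. In the theta class 2 of 4 genes were tested and both were lower. Of 5 tested mu-class genes 2 were lower and 3 not called, both omega-class genes were higher, and of 2 tested pi-class genes 1 was higher and 1 not called.

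Gsta4, which is known for conjugating 4-hydroxynonenal, a product of lipid peroxidation, had the highest GFP level of the S-transferases that fell (ENSMUSG00000032348.6, GRCm38 chr9:78182774-78209349, plus strand). It was read at 36.7, 37.0 and 38.1 CPM with ChREBP-beta and at 105, 97.0 and 88.0 CPM with GFP. Its 2.59-fold fall (log2 fold change -1.38, SE 0.0567, adjusted p = 2.24e-16) left all ChREBP-beta libraries far below all GFP libraries. Its neighbours Gsta1 and Gsta2 (chr9:78230656-78242684 and chr9:78331018-78355788) were much lower in level. Gsta1 had 2.07, 1.08 and 1.08 CPM with ChREBP-beta and 7.96, 7.30 and 4.30 CPM with GFP (4.60-fold lower, adjusted p = 1.45e-07). Gsta2 had 0.399, 0.604 and 0.504 CPM with ChREBP-beta and 2.02, 1.95 and 2.25 CPM with GFP (4.13-fold lower, adjusted p = 3.27e-05). Reads at both were divided between genes in all 6 libraries, so the share of each is uncertain, and Gsta2 reached the filter on counts in all GFP libraries but in only 1 ChREBP-beta library. Gsta3, on chromosome 1, was too low to test, with 0.598, 0.159 and 0.520 CPM with ChREBP-beta and 0, 0.332 and 0.891 CPM in GFP replicates 1 to 3. Its single 0 was in the GFP library that lacks the lung transcripts, and the part of foreign RNA in Gsta3 was not tested.

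In the mu cluster on chromosome 3, neighbours behaved differently. Gstm2 was read at 51.6, 53.0 and 53.5 CPM with ChREBP-beta and at 91.2, 90.9 and 89.9 CPM with GFP, 1.72-fold lower (log2 fold change -0.78, SE 0.0428, adjusted p = 6.56e-14). Gstm1, the next gene in the cluster, was read at 227, 233 and 234 CPM with ChREBP-beta and at 232, 238 and 229.6 CPM with GFP. Here the groups overlap and no difference was called (log2 fold change -0.01, SE 0.0300, adjusted p = 0.722). Gstm7 had 0.979, 1.44 and 1.16 CPM with ChREBP-beta and 4.45, 6.91 and 5.40 CPM with GFP, 4.66-fold lower (adjusted p = 4.83e-08). Gstm5 averaged 28.7 ± 1.55 CPM with ChREBP-beta and 25.8 ± 0.405 CPM with GFP, and Gstm6 averaged 0.625 ± 0.0757 and 1.02 ± 0.249 CPM in the same order of groups (SD, n = 3 libraries each; edgeR adjusted p = 0.0572 and 0.141). Neither was called, although the groups do not overlap at either gene, as at 63.2% of all genes tested. Without ChREBP-beta replicate 1, Gstm5 was called higher (adjusted p = 0.0361; range over its alternatives 0.0361 to 0.226). Gstm6 reached the filter in all GFP libraries but not in all ChREBP-beta libraries. Gstm3 had 5 counts over the ChREBP-beta libraries and 10 over the GFP libraries, and Gstm4 had 3 and 6 in the same order.

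Of the 4 theta genes on chromosome 10, whose enzymes act on small halogenated compounds, Gstt1 and Gstt3 fell and the other two were too low to test. Gstt1 was read at 2.34, 2.39 and 2.89 CPM with ChREBP-beta and at 12.7, 11.2 and 10.4 CPM with GFP (4.51-fold lower, log2 fold change -2.17, SE 0.155, adjusted p = 1.17e-11). Gstt3, which lies beside it on the same strand, had 1.09, 1.06 and 1.45 CPM with ChREBP-beta and 4.03, 6.69 and 5.59 CPM with GFP (4.52-fold lower, adjusted p = 1.01e-07). Both separate the groups completely, as did 63.2% of all genes tested. GFP replicate 1, where hepatocyte markers summed to 1.21 CPM, was the highest GFP library at Gsta1, Gsta4 and Gstt1, the lowest at Gstt3 and Gstm7 and between the others at Gsta2, and the part of foreign RNA in these genes was not tested. Gstt2 had 20 counts over the ChREBP-beta libraries and 26 over the GFP libraries, and Gstt4 was listed at 0 throughout.

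The omega enzymes, which use cysteine at the active site and reduce dehydroascorbate and arsenic compounds, rose. Gsto1 was read at 105, 109 and 116 CPM with ChREBP-beta and at 57.1, 55.4 and 50.7 CPM with GFP, 2.02-fold higher (log2 fold change 1.01, SE 0.0482, adjusted p = 4.04e-15). Gsto2, the adjacent gene on chromosome 19, had 1.80, 1.65 and 1.73 CPM with ChREBP-beta and 1.15, 0.609 and 0.891 CPM with GFP. Its 1.94-fold rise rests on 94 counts with ChREBP-beta and 49 with GFP (adjusted p = 0.0205). The call at Gsto2 was lost without GFP replicate 2, ChREBP-beta replicate 1 or ChREBP-beta replicate 3 (adjusted p = 0.104, 0.0607 and 0.0554; range over its alternatives 0.0147 to 0.104). Gstp1, the abundant pi enzyme, averaged 200.4 ± 1.61 CPM with ChREBP-beta and 155 ± 2.0 CPM with GFP (SD, n = 3 libraries each; 1.29-fold higher, edgeR adjusted p = 2.73e-10), with reads split with its near copy Gstp2 in all libraries. Gstp2 itself was at 1.77 ± 0.50 CPM with ChREBP-beta and 1.94 ± 0.767 CPM with GFP and was not called. Gstz1, which also degrades tyrosine as maleylacetoacetate isomerase, was 1.20-fold lower (adjusted p = 0.00162), and Gstcd was not called (log2 fold change -0.13, adjusted p = 0.0748). Gstcd was called lower under upper-quartile and library-size scaling and with a mean CPM of at least 5 (adjusted p = 0.0285, 0.0182 and 0.0407; range over its alternatives 0.0182 to 0.258). Gstk1, the kappa enzyme, had 10 counts over the ChREBP-beta libraries and 17 over the GFP libraries, and Gstp3 had 0 and 2 in the same order.

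Summed over the 23 genes, S-transferase transcripts came to 734 ± 11.3 CPM with ChREBP-beta and 763 ± 22.0 CPM with GFP (SD, n = 3 libraries each). By class, the alpha sum was 39.6 ± 0.671 CPM with ChREBP-beta and 106 ± 9.79 CPM with GFP, and the theta sum 4.11 ± 0.557 CPM with ChREBP-beta and 17.4 ± 0.765 CPM with GFP. The mu sum, the largest, was 315 ± 5.86 CPM with ChREBP-beta and 357 ± 5.25 CPM with GFP. The omega sum was 112 ± 5.42 CPM with ChREBP-beta and 55.3 ± 3.39 CPM with GFP, and the pi sum 202 ± 1.11 CPM with ChREBP-beta and 157 ± 1.86 CPM with GFP.

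**Figure D2:**
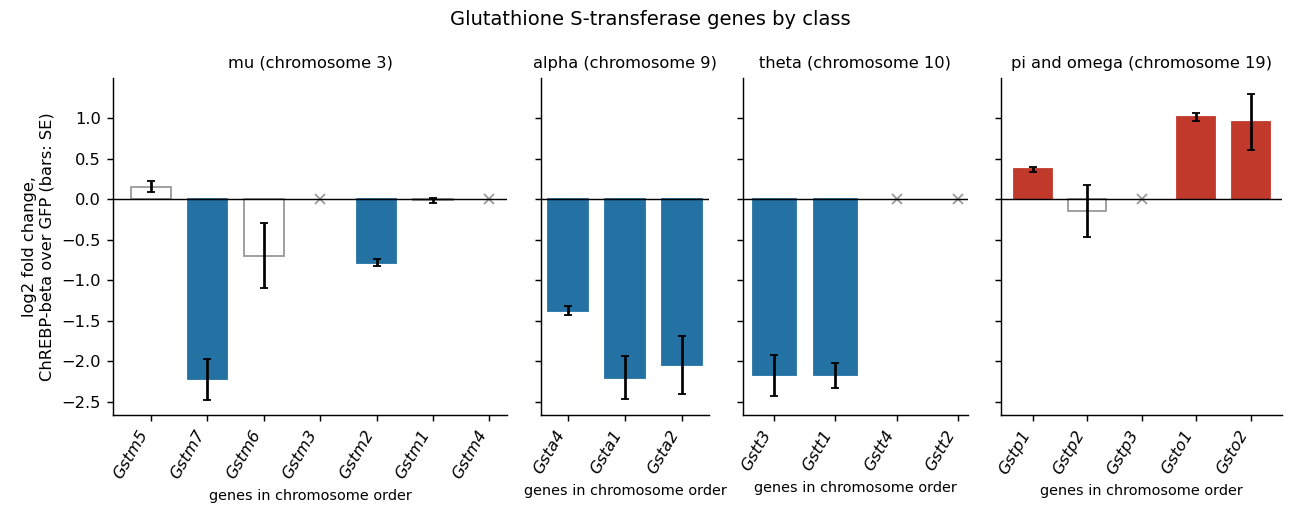
Log2 fold change (ChREBP-beta over GFP, bars are SE) of S-transferase genes, placed in chromosome order within each class. Blue bars are called lower, red bars called higher, open bars not called and crosses not tested; all 5 tested alpha and theta genes are blue, both omega genes are red, and in the mu class Gstm2 (-0.78) stands next to Gstm1 (-0.01). Gsta3, Gstcd, Gstk1 and Gstz1, on other chromosomes, are not drawn.

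In the thioredoxin system the reductases changed and the thioredoxins did not pass the test. Txnrd1, the cytosolic selenoenzyme that reduces thioredoxin with NADPH (ENSMUSG00000020250.10, GRCm38 chr10:82833951-82897712, plus strand), was read at 238, 248 and 244 CPM with ChREBP-beta and at 143, 142 and 142 CPM with GFP. The rise was 1.71-fold (log2 fold change 0.77, SE 0.0311, adjusted p = 1.32e-16) and the groups were far apart. Txn1, its cytosolic substrate, was read at 203, 216 and 218 CPM with ChREBP-beta and at 225, 215 and 203 CPM with GFP. Those values overlap (log2 fold change -0.01, adjusted p = 0.784). Txnrd3, a reductase with a glutaredoxin domain best known from testis, was 1.45-fold higher, at 16.2 ± 0.328 CPM with ChREBP-beta and 11.1 ± 0.360 CPM with GFP (SD, n = 3 libraries each; edgeR adjusted p = 2.47e-05).

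The mitochondrial pair did not follow the cytosolic pair. Txnrd2 was read at 11.04, 9.51 and 10.3 CPM with ChREBP-beta and at 11.9, 12.4 and 13.1 CPM with GFP, 1.21-fold lower (adjusted p = 0.0282). That call was lost under DESeq2 (adjusted p = 0.0760) and without GFP replicate 2 or 3 or ChREBP-beta replicate 2 or 3 (adjusted p between 0.0566 and 0.115; range over its alternatives 0.0119 to 0.115). Txn2 averaged 91.6 ± 2.01 CPM with ChREBP-beta and 93.2 ± 4.92 CPM with GFP and was not called (SD, n = 3 libraries each; edgeR adjusted p = 0.622). Of the 7 mitochondrial proteins in the set (Txn2, Txnrd2, Prdx3, Prdx5, Sod2, Glrx2 and Glrx5, some of which also occur elsewhere in the cell), 3 were higher, 1 was lower and 3 were not called. Of all genes tested, 29.5% were higher and 29.3% lower, and no test between compartments was run.

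Txnip, which binds thioredoxin and blocks it, lies outside the set and is a known ChREBP target. It was read at 80.0, 80.6 and 81.8 CPM with ChREBP-beta and at 16.6, 16.6 and 18.2 CPM with GFP. Its difference of 2.24 on the log2 scale was larger than that of any thioredoxin or reductase gene (0.77 at most).

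Glutaredoxins, which remove glutathione from protein thiols, moved by small steps. Glrx, the cytosolic form, rose 1.26-fold, at 85.7 ± 5.53 CPM with ChREBP-beta and 68.2 ± 4.01 CPM with GFP (SD, n = 3 libraries each; edgeR adjusted p = 4.83e-06). Glrx5, a mitochondrial iron-sulfur cluster protein, was called higher at 18.7, 20.4 and 21.4 CPM with ChREBP-beta and 18.7, 15.2 and 17.1 CPM with GFP (1.18-fold, adjusted p = 0.0242), although the groups overlap. Its call was lost under library-size scaling and without GFP replicate 2, ChREBP-beta replicate 2 or ChREBP-beta replicate 3 (adjusted p = 0.0654, 0.129, 0.0597 and 0.104; range over its alternatives 0.00812 to 0.129). Glrx2 and Glrx3 were not called (log2 fold change -0.22 and -0.06, adjusted p = 0.0685 and 0.166). Both were called lower under upper-quartile and library-size scaling (adjusted p = 0.0369 and 0.0277 for Glrx2, 0.0369 and 0.0177 for Glrx3; ranges over all alternatives 0.0277 to 0.205 and 0.0177 to 0.422).

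Peroxiredoxins, which remove hydrogen peroxide with electrons from thioredoxin, are among the most abundant transcripts of the set. Prdx2 was read at 419, 419.7 and 416 CPM with ChREBP-beta and at 544, 528 and 537 CPM with GFP, 1.28-fold lower (log2 fold change -0.36, SE 0.0266, adjusted p = 2.31e-11). Its exons overlap Junb and Rnaseh2a on the opposite strand (log2 fold changes -0.09 and 0.28). Prdx1, the other cytosolic form, was read at 480.0, 489 and 495 CPM with ChREBP-beta and at 471, 465 and 448 CPM with GFP, 1.06-fold higher (adjusted p = 0.0156). The groups do not overlap at either gene, as at 63.2% of all genes tested, and Prdx1 and Prdx2 moved in opposite directions. The call at Prdx1 was lost under upper-quartile and library-size scaling (adjusted p = 0.140 and 0.272) and without GFP replicate 3 or ChREBP-beta replicate 3 (adjusted p = 0.0569 and 0.0625; range over its alternatives 0.00685 to 0.272). Prdx4, of the endoplasmic reticulum, was 1.22-fold lower, at 92.1 ± 4.16 CPM with ChREBP-beta and 112 ± 0.155 CPM with GFP (SD, n = 3 libraries each; edgeR adjusted p = 1.08e-06). Prdx5 and Prdx6, which act in mitochondria and cytosol, were 1.21-fold and 1.23-fold higher (adjusted p = 4.42e-06 and 6.77e-07). Reads of Prdx5 were split between genes in all libraries, and its exons overlap Trmt112 on the opposite strand, which also rose (log2 fold change 0.22, adjusted p = 0.00213). Prdx3, the mitochondrial form, averaged 84.8 ± 1.38 CPM with ChREBP-beta and 84.5 ± 4.29 CPM with GFP. Srxn1, sulfiredoxin, which rescues overoxidised peroxiredoxins and is a textbook NRF2 target, was read at 79.9, 81.4 and 83.2 CPM with ChREBP-beta and at 83.4, 78.4 and 79.1 CPM with GFP. Srxn1 was not called and its groups overlap (log2 fold change 0.02, SE 0.0417, adjusted p = 0.694).

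The 3 superoxide dismutases, which turn superoxide into hydrogen peroxide, differed in direction. Sod3, the secreted enzyme that binds extracellular matrix (ENSMUSG00000072941.5, GRCm38 chr5:52363791-52371418, plus strand), had the largest rise of the set. Its levels were 220.2, 227 and 225 CPM with ChREBP-beta and 104, 107 and 101 CPM with GFP, 2.15-fold higher (log2 fold change 1.11, SE 0.0336, adjusted p = 4.43e-19). The GFP library that lacks the lung transcripts read 104 CPM at Sod3, between the other GFP libraries. Sod2, the mitochondrial enzyme, was read at 75.2, 80.7 and 77.5 CPM with ChREBP-beta and at 58.8, 59.0 and 61.4 CPM with GFP, 1.30-fold higher (adjusted p = 9.85e-08), with reads split between genes in all libraries. Sod1, the cytosolic enzyme, was read at 96.3, 98.5 and 94.9 CPM with ChREBP-beta and at 103, 111 and 107 CPM with GFP, 1.11-fold lower (adjusted p = 0.00200). Each of the 3 separates the groups, as did 63.2% of all genes tested. Cat, the peroxisomal catalase, was read at 77.1, 73.4 and 74.1 CPM with ChREBP-beta and at 72.6, 72.2 and 77.4 CPM with GFP, and was not called (log2 fold change 0.02, adjusted p = 0.778).

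The detoxifying enzymes Hmox1 and Nqo1, both classical NRF2 targets, differed in size of change. Hmox1, heme oxygenase, which breaks heme into biliverdin, iron and carbon monoxide (ENSMUSG00000005413.8, GRCm38 chr8:75093621-75100589, plus strand), was read at 75.2, 77.7 and 75.7 CPM with ChREBP-beta and at 41.4, 40.2 and 42.0 CPM with GFP. It was 1.85-fold higher (log2 fold change 0.89, SE 0.0482, adjusted p = 6.01e-14), with no overlap. Nqo1, a quinone reductase, was read at 71.8, 70.9 and 74.3 CPM with ChREBP-beta and at 71.8, 62.8 and 59.4 CPM with GFP. It was called at 1.12-fold higher (adjusted p = 0.0163) with overlapping groups. Under upper-quartile and library-size scaling the call was lost (adjusted p = 0.0533 and 0.0843), as it was without GFP replicate 2 or 3 or ChREBP-beta replicate 3 (adjusted p = 0.0602, 0.0975 and 0.0654; range over its alternatives 2.94e-04 to 0.0975).

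**Figure D3:**
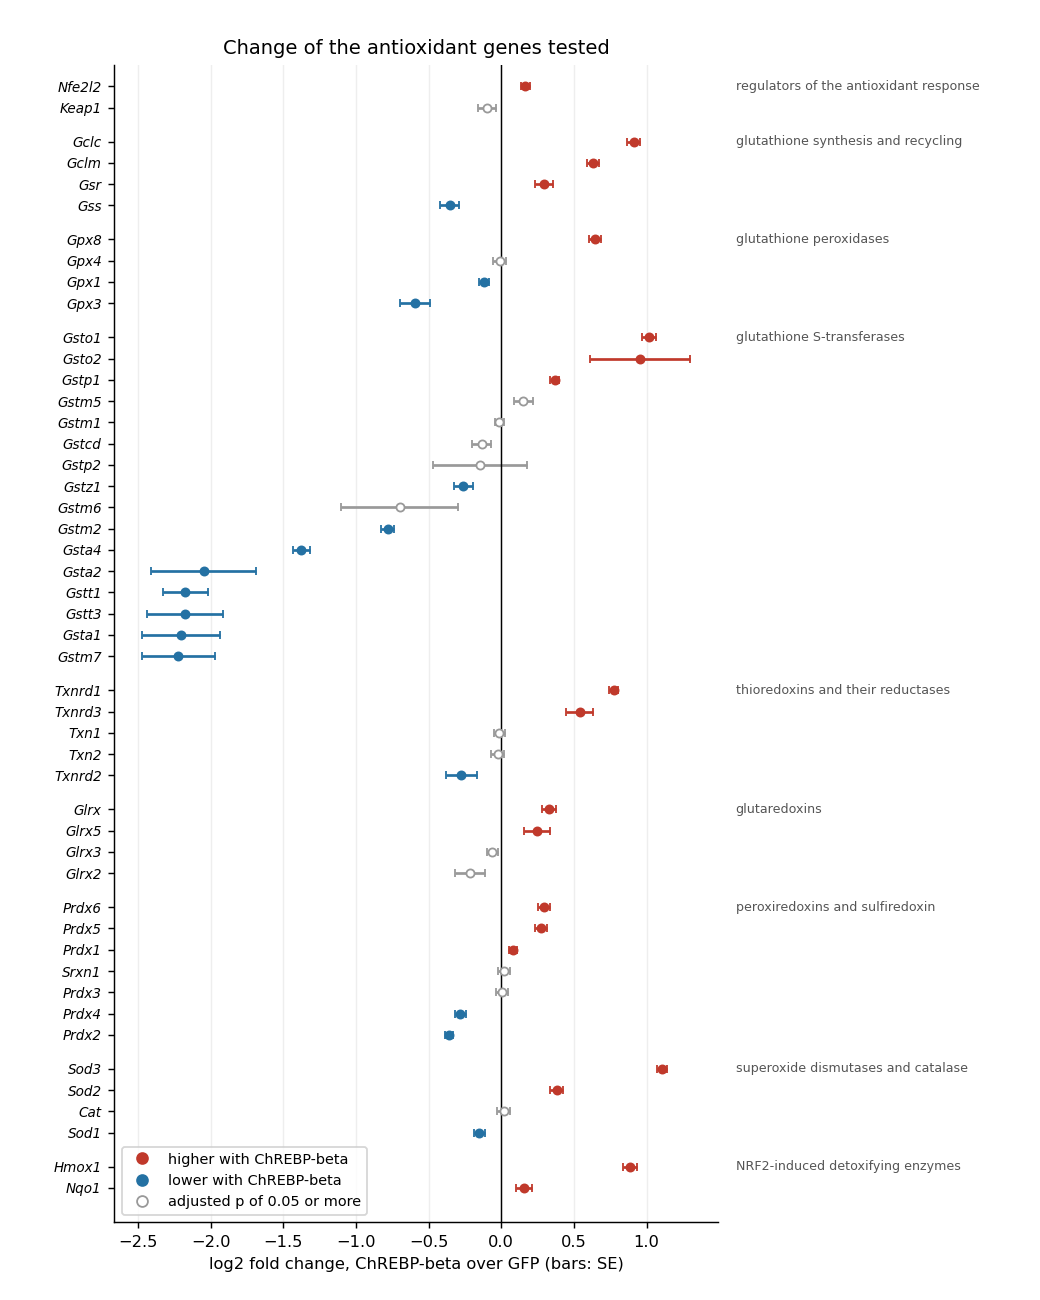
Log2 fold change (ChREBP-beta over GFP, bars are SE) of the 48 tested genes, grouped by role and ordered by change within each role. Filled red points are called higher, filled blue points called lower and open points not called; changes run from -2.22 at Gstm7 to 1.11 at Sod3, and the points left of -1 are all S-transferases.

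To compare levels between genes, CPM was divided by the kilobases of exon annotated for each gene in GENCODE M21. On that scale Txn1 stood first among the 59 genes in both groups, at 202 CPM per kb with ChREBP-beta and 204 CPM per kb with GFP. Gpx8 was at rank 2 with ChREBP-beta (199 CPM per kb) and rank 5 with GFP (127 CPM per kb), and Prdx2 at rank 5 with ChREBP-beta (137 CPM per kb) and rank 2 with GFP (176 CPM per kb). The level of Sod3 was 59.9 CPM per kb with ChREBP-beta and 27.8 CPM per kb with GFP, and that of Gsta4 29.5 CPM per kb with ChREBP-beta and 76.4 CPM per kb with GFP. Among the reductases, Txnrd1 stood at 34.4 CPM per kb with ChREBP-beta and 20.1 CPM per kb with GFP, above Txnrd2 at 2.34 and 2.83 CPM per kb in the same order of groups. Annotated exon length includes all isoforms, so genes with rarely used long exons are understated. The 5 genes that fell over 4-fold had between 0.312 CPM per kb (Gstt3 with ChREBP-beta) and 7.496 CPM per kb (Gstt1 with GFP).

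**Figure D4:**
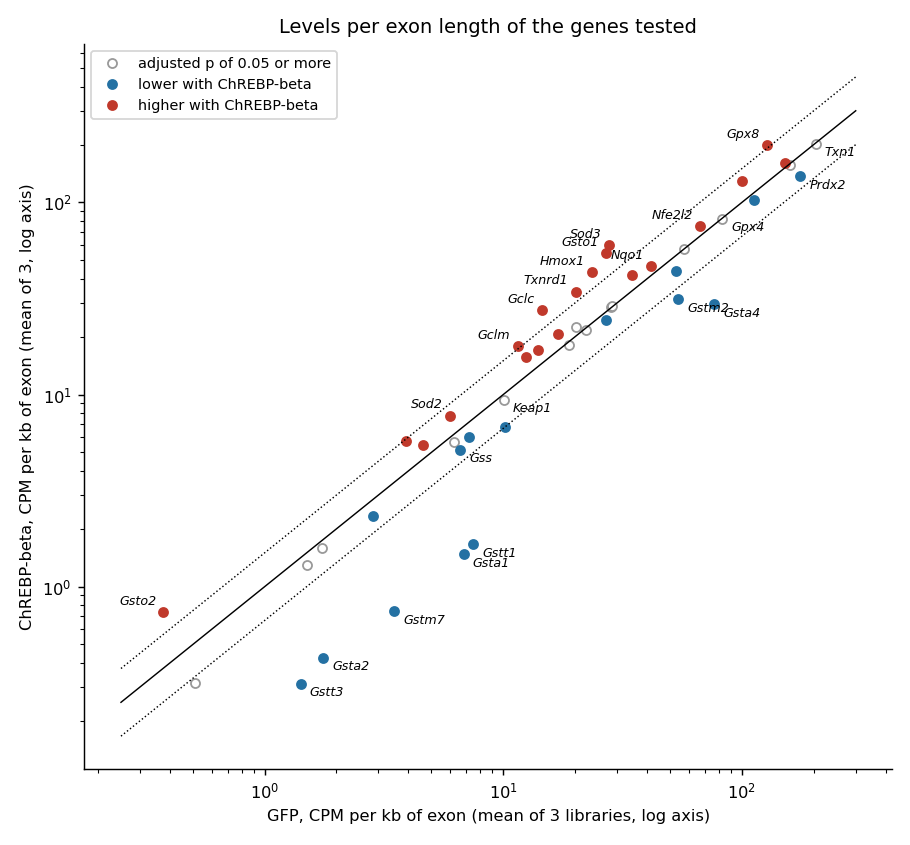
Mean level of the 48 tested genes in CPM per kb of exon, with GFP across and ChREBP-beta up the page, both on log axes. The solid line marks equal levels and the dotted lines 1.5-fold differences; the most abundant genes lie near the line, apart from Gpx8 (199 against 127 CPM per kb), and Gstt1, Gsta1, Gstm7, Gsta2 and Gstt3 lie far below it.

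Selenoproteins carry selenocysteine at the active site. Of the 6 tested in the set, Txnrd1 and Txnrd3 were higher, Gpx1, Gpx3 and Txnrd2 lower and Gpx4 not called. In a wider list of 18 genes for selenoprotein synthesis and other selenoproteins, 3 were higher, 6 lower and 9 not called, so that 50% were called, beside 58.7% of all genes tested. Sephs2, which makes the selenium donor, rose 1.48-fold (adjusted p = 5.29e-06). Selenop, the selenium carrier of plasma, fell 2.18-fold and Selenom, of the endoplasmic reticulum, 1.74-fold (adjusted p = 9.38e-08 and 2.16e-10).

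Genes around the set were counted in the same test. Over 98 tested genes of 6 lists, some in more than 1 list, 34 were higher (34.7%), 29 lower (29.6%) and 35 not called, beside 29.5% and 29.3% of all genes. In the list of cystine supply and glutathione turnover, 10 of 23 tested were higher (43.5%) and 8 lower (34.8%). Slc7a11, which imports cystine, had 13.5, 12.3 and 12.5 CPM with ChREBP-beta and 9.42, 7.69 and 6.91 CPM with GFP, 1.59-fold higher (adjusted p = 3.55e-05) with split reads in all libraries. Chac1, which degrades glutathione inside the cell, rose 2.27-fold (adjusted p = 8.51e-07). The enzymes that make cysteine from homocysteine were lower at low levels. Cbs had 7, 0 and 3 counts with ChREBP-beta and 66, 61 and 48 with GFP. It therefore passed the filter on counts (minimum 10) through GFP, its higher group. Cth had 11, 6 and 10 counts with ChREBP-beta and 71, 40 and 36 with GFP. It reached the filter in all GFP libraries, its higher group, but not in all ChREBP-beta libraries. Cbs averaged 0.185 ± 0.191 CPM with ChREBP-beta and 3.17 ± 0.429 CPM with GFP, and Cth averaged 0.499 ± 0.156 CPM with ChREBP-beta and 2.64 ± 0.933 CPM with GFP (SD, n = 3 libraries each; edgeR adjusted p = 7.97e-08 and 7.58e-06).

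Of 12 tested partners and repressors of NRF2, 6 were higher, 4 lower and 2 not called, so that 83.3% were called, beside 58.7% of all genes tested. Maff, a small MAF protein that pairs with NRF2 or BACH1, was read at 33.4, 32.8 and 31.7 CPM with ChREBP-beta and at 11.6, 12.9 and 9.69 CPM with GFP, 2.87-fold higher (adjusted p = 2.04e-13). Mafk rose 1.73-fold (adjusted p = 1.75e-07) and Bach2, a repressor of the BACH family, fell 3.07-fold at about 2 CPM or less (adjusted p = 2.82e-04). Bach2 had 17, 10 and 11 counts with ChREBP-beta and 46, 36 and 37 with GFP. It reached the filter on counts in all GFP libraries, its higher group, but not in all ChREBP-beta libraries. Bach1, of the same family, went the other way at a higher level. It averaged 36.6 CPM with ChREBP-beta and 32.6 CPM with GFP (1.12-fold higher, edgeR adjusted p = 0.0194). Other NRF2 target genes had 14 of 31 higher (45.2%), 6 lower (19.4%) and 11 not called, beside 29.5% higher and 29.3% lower of all genes tested. Tkt, transketolase, rose 2.65-fold and Osgin1, an oxidative stress gene, 1.81-fold (adjusted p = 8.09e-21 and 3.75e-09). Aldh3a1, an aldehyde dehydrogenase, was read at 11.1, 9.36 and 10.4 CPM with ChREBP-beta and at 53.9, 59.3 and 57.4 CPM with GFP, 5.53-fold lower (adjusted p = 3.14e-19).

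In the list of thioredoxin-linked repair, 4 of 14 tested genes were higher and 4 lower, 28.6% each way, which is close to the share of all genes (29.5% and 29.3%). Sesn1 and Sesn3, sestrins that restrain growth signalling under stress, fell 1.59-fold and 1.88-fold (adjusted p = 9.11e-11 and 7.50e-13). Of 16 genes for NADPH oxidases and other superoxide sources, 6 could be tested and 3 were called (50%, beside 58.7% of all genes tested). Nox4, an oxidase that makes hydrogen peroxide, had 6.85, 6.86 and 6.88 CPM with ChREBP-beta and 4.71, 4.54 and 4.07 CPM with GFP, 1.54-fold higher (adjusted p = 0.00109). Poldip2, a partner of Nox4, rose 1.11-fold (adjusted p = 0.00621), and Duoxa1, a maturation factor of dual oxidases, fell 2.36-fold at low counts (adjusted p = 0.00524).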

How the data were processed

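The values are estimated counts of reads, 1 row for each gene symbol, which the authors deposited without normalization in a table that covers the 6 libraries; 7.74% of them are not whole. The submitters' processing notes list fastp, TopHat2 2.0.0 and Bowtie2 2.0.0.5, and a chicken assembly, GRCg6a, although the symbols are those of mouse genes. No source used here names the program that counted the reads, its annotation or its strand setting. Of the 48 tested genes of the set, 10 hold reads split between genes in at least 1 library, and exons of 10 overlap those of another annotated gene.

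Rows of 24 repeated symbols were summed (none in the set) and counts rounded to whole numbers. The test was edgeR's quasi-likelihood F test (edgeR 4.0.16 in R 4.3.3; glmQLFit and glmQLFTest) on group alone, after filterByExpr (minimum count 10, total 15) and TMM scaling, with p-values adjusted by Benjamini-Hochberg over all 12166 genes tested. The procedure was run on simulated counts with spread taken from these libraries and few changed genes. That run does not test the scaling where most genes are called, as they are here. A standard error is the size of the log2 fold change over the root of F. Depth ran from 17600238 to 19163834 counts a library, and libraries of a group differed by more than sampling noise (chi-square per degree of freedom 2.14 to 3.95), so each was kept.

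The gene set and lists were chosen with earlier results of these data known. Every tested gene of the set may be named. Values per library are given for the 14 largest called changes with a mean of at least 1 CPM in the higher group, the 6 most abundant genes and 14 fixed genes; Gpx3, Txnrd2, Glrx5 and Gsta3 were given in the same way after their values were seen. From each other list up to 3 called genes with the largest change are named, besides Slc7a11 and Txnip. Genes overlapping the set, and Bach1, were also named after the fact. Gene models and exon lengths come from GENCODE M21 (GRCm38) and promoters from RefSeq (GRCm38.p6), matched by symbol; the build behind the counts may differ. Scaling by RLE, upper quartile or library size, other filters (none, or a mean of 5 CPM or more), DESeq2 1.42.0, limma-voom (limma 3.58.1), a replicate block, leaving out each library, leaving out genes with split reads, and a 1.5-fold minimum were the alternatives.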

Additional observations from a re-analysis of the deposited data

How the results depend on the processing

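Of the 34 genes of the set called, 28 kept direction and call under every alternative that gave them a value, the 1.5-fold minimum aside. The other 6 (Gsto2, Prdx1, Nqo1, Glrx5, Gpx1 and Txnrd2) lost the call under at least 1, with values given above, and of the 34 none changed direction. Without 1 library, 15 to 19 genes of the set were called higher and 14 to 16 lower (19 and 16 without GFP replicate 1), as were 30 to 36 and 24 to 27 of the other pathway genes and 6505 to 6823 of all genes. A 1.5-fold minimum left 8 higher, 8 lower and 2412 of all genes, by construction. Upper-quartile scaling gave 17 higher and 18 lower, library-size scaling 16 and 18, and leaving out genes with split reads 16 and 10.

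Genes not called and near 0 changed sign. Under upper-quartile and library-size scaling, which put the median log2 fold change of all genes at -0.04 and -0.05, Srxn1 was at -0.012 and -0.026, Cat at -0.017 and -0.031 and Prdx3 at -0.028 and -0.042; with a mean of 5 CPM or more, Prdx3 was at -0.010. Without 1 library, the log2 fold change ranged from -0.019 to 0.0073 for Gstm1, -0.046 to 0.026 for Txn1, -0.056 to 0.041 for Gpx4, -0.33 to 0.23 for Gstp2, -0.029 to 0.036 for Prdx3 and -0.051 to 0.017 for Txn2. The cause was not tested.

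With the replicate number as a block, 19 genes of the set were higher and 15 lower, and 6902 of all genes were called. Libraries with the same number did not deviate together (correlations -0.0116, 0.00295 and -0.0484). Pairs with different numbers had correlations from -0.045 to 0.052. These values do not show whether samples of the same number were prepared together. Low counts limit the genes near 1 CPM, among them Gsto2, Gstm6 and Gsta2.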
